A study of Mus musculus with 12 samples.

Results

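Gzmk-positive CD8+ T cells without Havcr2 were examined in MC38 tumors, and 612 of 3870 CD8-gated cells (15.8%, exact 95% interval 14.7% to 17.0%) met the rule. The rule took cell barcodes with 200 to 5000 genes (limits excluded) and no more than 10% of UMIs (unique molecular identifiers, 1 per captured mRNA molecule) from mitochondrial genes. It then required at least 1 UMI of the T cell receptor chains Cd3d, Cd3e or Cd3g and 1 of Cd8a or Cd8b1, with none of Cd4 or of the macrophage genes Adgre1 and Csf1r; these cells are called CD8-gated. Members also had at least 1 UMI of Gzmk (granzyme K) and none of Havcr2 (the inhibitory receptor TIM-3), Tcf7 (the stem-like T cell factor TCF-1) or Mki67 (a proliferation gene). The members were therefore selected on measured values of these 12 genes, and every difference of other genes between members and the remaining CD8-gated cells is a description of the selected cells, with no test.

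MC38 is a mouse colon carcinoma cell line, which was implanted under the skin of C57BL/6 mice. The 4 groups of 3 mice received vehicle or the EZH2 inhibitor (EZH2i) PF-06821497 at 100 mg/kg, once a day by subcutaneous injection, for 7 days (dosing from day 10 after implantation) or for 16 days (dosing from day 1). All tumors were taken on day 17, CD45+ cells, the immune cells of the tumor, were enriched with microbeads, and 3′ single-cell RNA-seq libraries were made. The barcodes carry library numbers from 1 to 12, but no label ties a number to a mouse or treatment, so the libraries were treated as 1 pooled sample and also described 1 by 1, and vehicle and EZH2i were not compared.

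The 12 libraries held 140639 barcodes (4256 to 38110 per library, median 8465.5), of which 128912 passed the quality limits. CD8-gated cells numbered from 9 in library 4 to 1121 in library 6. Of 138353 barcode sequences, 2261 occurred in 2 or more libraries, and 18 members had a sequence that was also present in another library. Libraries 1 to 6 held 16 to 524 UMIs of the Y-linked genes Ddx3y, Eif2s3y, Kdm5d and Uty in the CD8-gated cells, and libraries 7 to 12 held 0 in each, whereas the methods state female mice, so results are also given within each set of libraries. The treatment behind each library was not assigned here.

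Granzyme K is a tryptase-like serine protease of cytotoxic granules, encoded on mouse chromosome 13 near Gzma. In tumors and chronically stimulated tissue, CD8+ T cells with GZMK and the T-box factor EOMES but little TIM-3 are commonly described as a memory-like or pre-dysfunctional state, between TCF-1+ stem-like cells and TIM-3+ terminally exhausted cells. EZH2 is the catalytic subunit of polycomb repressive complex 2, which places the repressive mark H3K27me3.

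The cells were first checked against their label. Members had 513 CPM (UMI counts scaled to a class total of 1000000) of Cd8a, against 528 in the remaining cells, and 713 CPM of Cd8b1. Cd8a and Cd8b1 belong to the rule, so their levels do not check the label. Eomes, the marker of the label that the rule did not use, was at 220 CPM in members and 79.4 in the remaining cells. Summed dendritic cell markers were lower in members than in the remaining cells, at 1308 against 2831 CPM, with medians over the 9 libraries compared below of 476 and 1839. Macrophage markers were lower in the pooled cells (1901 against 2707 CPM) but not in the median library (1600 against 1259), and C1qa, C1qc and Apoe were higher in members in 7 of 9 libraries. NK cell markers were at 495 against 702 CPM pooled, with library medians of 539 and 533. Gamma delta T cell markers were at 159 against 124 CPM pooled, with library medians of 129 and 130, and 117 CPM of the members' sum was Tcrg-C2. B cell markers were at 145 against 99 CPM pooled, with library medians of 102 and 98.4, and Igkc (123 against 41.0 CPM) made up most of the members' sum. Neutrophil markers were at 131 against 198 CPM pooled, with library medians of 16.2 and 113. Members of library 1, however, had 949 CPM of S100a8 and 1084 of S100a9. Regulatory T cell markers were at 407 against 586 CPM pooled, with library medians of 395 and 615. In members that sum was mostly Ctla4 (166 against 157 CPM) and Ikzf2 (172 against 268). Other markers present in members included the NK gene Klre1, at 166 against 141 CPM, and the epithelial gene Epcam, at 9.92 against 12.1. The markers Ncr1 and Klra8 (NK cells), Foxp3 (regulatory T cells), Ms4a1 (B cells), Cd209a (dendritic cells) and Krt8 and Krt18 (epithelial cells) were at 0 in members, but Krt8 was also at 0 in the remaining cells and Foxp3 at 1 UMI. A count of 0 in all 612 members allows up to 1.42 CPM each (3 counts of the members' UMIs, the limit used for a count of 0 throughout). Intervals and limits cover counting error only.

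Pooled over libraries, the median member had 2841.5 UMIs (518 to 16785) and 1200.5 genes, and the median remaining cell 2968 UMIs and 1278.5 genes. Within libraries members were shallower than the remaining cells in 11 of 12, with medians of 1846 against 2589 UMIs in libraries 1 to 6 and 3974 against 4579 in libraries 7 to 12. Mitochondrial UMIs made up 4.02% and 4.30%. With each cell thinned to 1000 UMIs, the median numbers of genes were 569.5 and 579.5. The Gzmk-zero cells had a pooled median of 2049 UMIs, with 705 of the 1697 cells in library 6 at a median of 1437, but they were deeper than members in 8 of 12 libraries. Gzmk mRNA below the limit of a single UMI was not detectable at these depths.

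The remaining 3258 cells fell into 4 classes that do not overlap. Gzmk-zero cells, which lacked UMIs of Gzmk, Tcf7, Havcr2 and Mki67, were the largest class with 1697 cells (43.9%). Mki67-positive cells numbered 699 (18.1%), Havcr2-positive cells without Mki67 546 (14.1%) and Tcf7-positive cells without either 316 (8.17%). Gzmk itself was at 679 CPM in members, 273 in Tcf7-positive, 139 in Havcr2-positive and 138 in Mki67-positive cells. Among cells outside the members, 120 of 316 Tcf7-positive (38.0%), 133 of 546 Havcr2-positive (24.4%) and 221 of 699 Mki67-positive cells (31.6%) had a Gzmk UMI. As background for free RNA, 0 of 214 B cells (which allows up to 1.40%), 96 of 59620 macrophages (0.161%) and 3 of 114 NK cells (2.63%) had one, at median depths of 1367, 7682 and 3470.5 UMIs. Gzmk was thus spread over the CD8+ classes well above the share in B cells and macrophages.

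The share of members among CD8-gated cells varied widely between libraries. It was 18.2%, 18.1%, 9.96%, 11.1%, 6.41% and 5.62% in libraries 1 to 6, and 24.9%, 43.1%, 26.7%, 6.58%, 24.2% and 21.6% in libraries 7 to 12. Library 8 stood apart, with 172 members of 399 cells (38.2% to 48.1%) and only 8.77% Gzmk-zero cells. Pooled, members made up 9.18% (8.11% to 10.4%) of the cells in libraries 1 to 6 and 29.8% (27.2% to 32.4%) in libraries 7 to 12. Depth moved with this split, since members had a median of 1846 UMIs in the first set and 3974 in the second, and its part in the shares was not tested. Libraries 4, 10 and 12 gave only 1, 5 and 11 members.

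**Figure D1:**
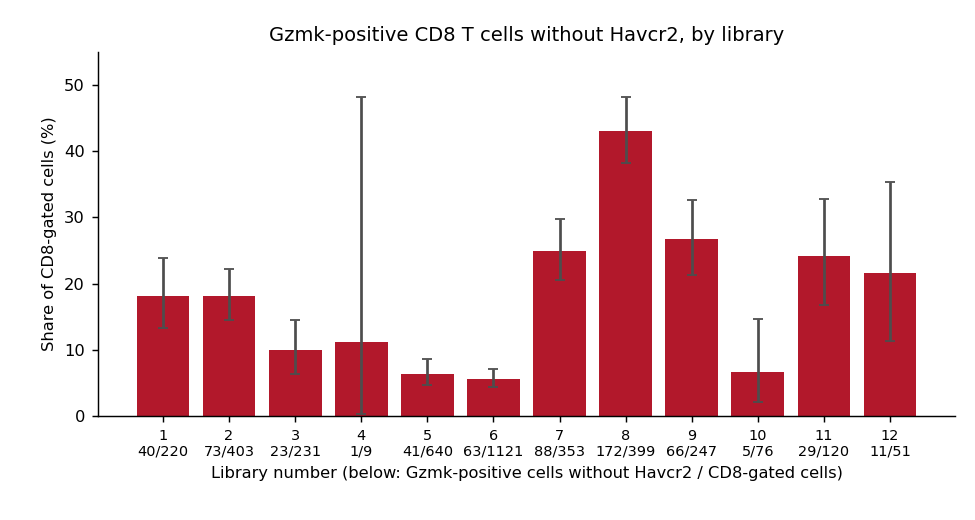
Members as a percentage of the CD8-gated cells (y axis) in each of the 12 libraries (x axis), with exact binomial 95% intervals as bars. Library 8 is highest at 43.1% and library 6 lowest at 5.62%, and libraries 1 to 6 all lie at or below 18.2%.

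Cells on either side of the Gzmk threshold were described by their number of Gzmk UMIs. Of the members, 306 (50%) had 1 Gzmk UMI, 124 (20.3%) had 2 and 182 (29.7%) had 3 or more, up to 14. Their median depths were 2148, 2475.5 and 4709.5 UMIs, so cells with 3 or more were also the deepest. Ccl5 was at 3950 CPM in Gzmk-zero cells, just outside the threshold, at 10636 in members with 1 UMI, just inside, and at 22003 in those with 3 or more. Maf went from 85.5 over 223 and 484 to 817 CPM in the same order of 0, 1, 2 and 3 or more Gzmk UMIs. Eomes went from 52.5 over 132 and 236 to 293 CPM, and the chemokine receptor Ccr2 from 47.1 over 128 and 186 to 325 CPM. In the other direction, Irf8 went from 391 CPM at 0 over 185 and 86.4 to 70.0, and Xcl1 from 493 over 119 and 89.0 to 33.9. In these pooled cells members with a single Gzmk UMI lay between Gzmk-zero cells and members with more for these genes. Other genes broke this order, among them Gzma (194, 663, 636 and 1026 CPM) and Gzmb (526, 708, 579 and 965). The libraries also differed between the steps, with 172 members but 35 Gzmk-zero cells from library 8, and 63 and 705 from library 6. The steps were not split by library, and the part of the libraries was not tested.

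**Figure D2:**
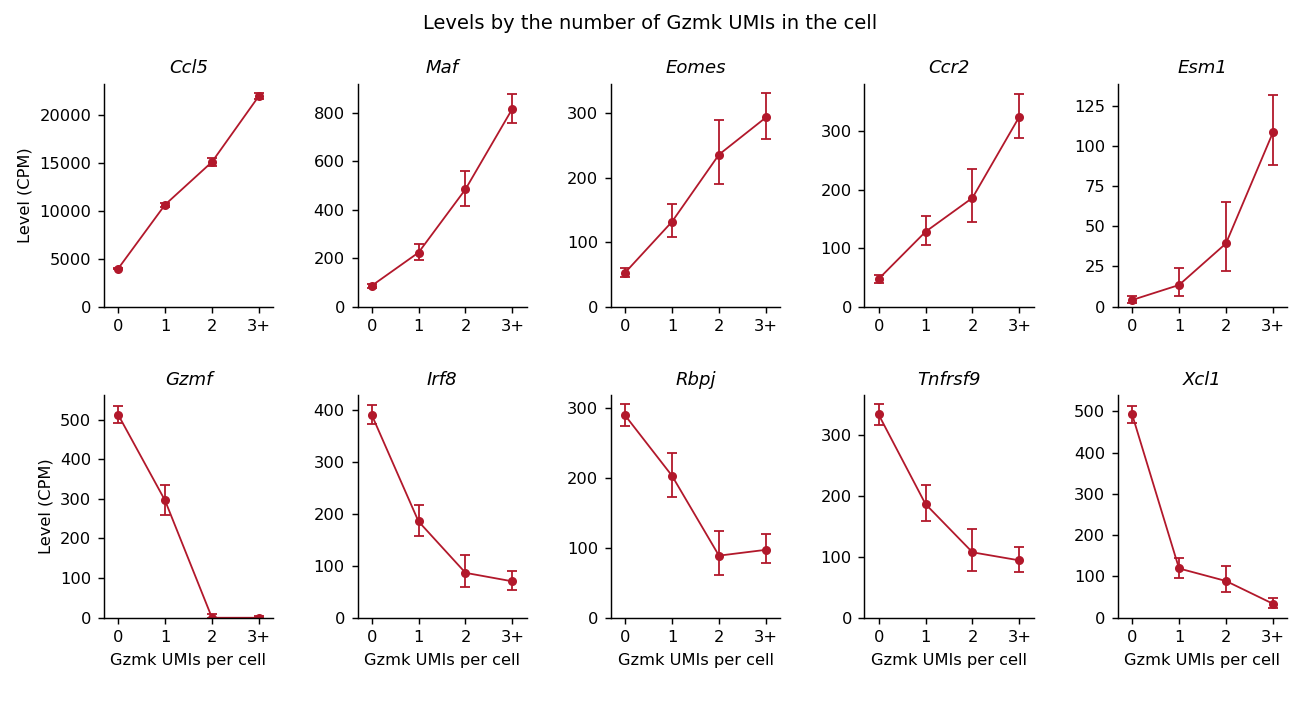
Level in CPM (y axis, from 0) of 10 genes in Gzmk-zero cells and in members with 1, 2 and 3 or more Gzmk UMIs (x axis), 1 panel per gene, with exact Poisson 95% intervals as bars. Ccl5, Maf, Eomes, Ccr2 and Esm1 are higher with each step, and Gzmf reaches 0 at 2 Gzmk UMIs.

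Across all genes, UMIs were summed over cells, scaled to CPM and compared as a ratio of members to remaining cells. Of 7484 genes with a mean of at least 10 CPM over all CD8-gated cells, 498 (6.65%) were at least 1.5-fold higher and 1089 (14.6%) at least 1.5-fold lower in members. Against Gzmk-zero cells, which differ from members only in Gzmk within the rule, 532 of 7483 genes (7.11%) were higher and 972 (13.0%) lower; that balance turned to 726 higher and 613 lower with the libraries matched as described next. In the 9 libraries with at least 20 members and 20 remaining cells (1 to 3, 5 to 9 and 11), 181 genes (2.42%) were higher in members in every library and 350 (4.68%) lower in every library. Because library 8 gave many members, the remaining cells were also reweighted so that each library had the same share of UMIs as among members, here called library-matched, and then 216 genes were higher and 687 lower. Matching Gzmk-zero cells gave library 8 its share of the members' UMIs, although only 35 of the 1697 Gzmk-zero cells came from it. All library-matched values against Gzmk-zero cells therefore rest in large part on these 35 cells. The median log2 ratio of all genes was −0.05, and −0.03 library-matched. Gene list counts below are to be read against the shares of 6.65% and 14.6%, library-matched counts against 2.89% and 9.18%, counts without Mki67-positive cells against 5.41% and 11.8%, and counts without library 8 against 6.76% and 13.0%.

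Among cytotoxic granule genes, the members were distinguished by Gzma, the granzyme A gene, encoded beside Gzmk (chromosome 13, 113093825 to 113100981, minus strand, GRCm38). Gzma was at 815 CPM in members and 191 in the remaining cells, a ratio of 4.26 (exact 95% interval 4.01 to 4.54). In the 9 libraries members ranged from 97.4 over a median of 493 to 2254 CPM, and remaining cells from 7.41 over 93.5 to 573. Members were higher in 9 of 9 libraries although the ranges overlap. The level in the other classes was similar, between 179 CPM in Mki67-positive and 225 in Tcf7-positive cells. A Gzma UMI was found in 24.8% of members and 8.56% of the rest (16.4% and 5.96% after thinning), against 0.419% of macrophages and 61.4% of NK cells. The log2 ratio was 2.09, with 2.20 in libraries 1 to 6, 1.38 in libraries 7 to 12 and 1.35 library-matched.

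The granzyme genes clustered on chromosome 14 behaved differently from Gzma. Gzmb (granzyme B) was at 796 CPM in members and 559 in the rest, a ratio of 1.42 (1.35 to 1.5), and higher in 7 of 9 libraries. It was at 778 CPM in Havcr2-positive cells. Gzmc was at 17.5 against 231 CPM (0.0757 times, 0.0532 to 0.105), Gzmd at 3.78 against 65.3 and Gzme at 12.3 against 50.4. Gzmf was at 115 CPM in members, 592 in the rest and 996 in Havcr2-positive cells. Besides Gzma and Gzmb these were the granzyme genes past the filter, and each was over 1.5-fold lower. Single libraries carried much of these values. Library 5 gave 2198 of the 2985 Gzmc UMIs of the remaining cells, and without it the Gzmc ratio was 0.217. Without library 7 it was 0.0444 and without library 8 0.117. Library 2 gave 8 of 8 Gzmd and 25 of 26 Gzme UMIs of the members. The log2 ratio of Gzmd was −4.11, and −3.51 and −3.44 without libraries 3 and 8, and without library 2 no Gzmd UMI of members was left, which allows a ratio of at most 0.0237. The log2 ratio of Gzme was −1.22 without library 3 and −1.36 without library 8, and without library 2 members held 1 Gzme UMI (0.00967 times, 0.000244 to 0.0541).

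Gzmf showed how few members carried these transcripts. Only 9 of 612 members (1.47%) had a Gzmf UMI, against 12.2% of remaining and 20.5% of Havcr2-positive cells. All 243 of the members' UMIs came from cells with 1 Gzmk UMI, and members with 2 or more had 0. Library 2 gave 166 of these UMIs, and without it members were at 39.6 CPM and the rest at 595. Library 5 gave 4835 of 7652 Gzmf UMIs of the remaining cells, and without it the levels were 109 and 260 CPM. The log2 ratio of Gzmf was −3.91 without library 2, −1.25 without library 5 and −1.69 without library 8. Among the members of single libraries, Gzmf ranged from 0 to 964 CPM, the highest being library 2, and it was lower in members in 7 of 9 libraries. Library-matched, the log2 ratio of Gzmf was −1.05 instead of −2.37 and that of Gzme −0.45 instead of −2.04. Against Gzmk-zero cells the library-matched log2 ratio of Gzme was 1.02, higher in members, so its direction rests on which cells and libraries it is set against.

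**Figure D3:**
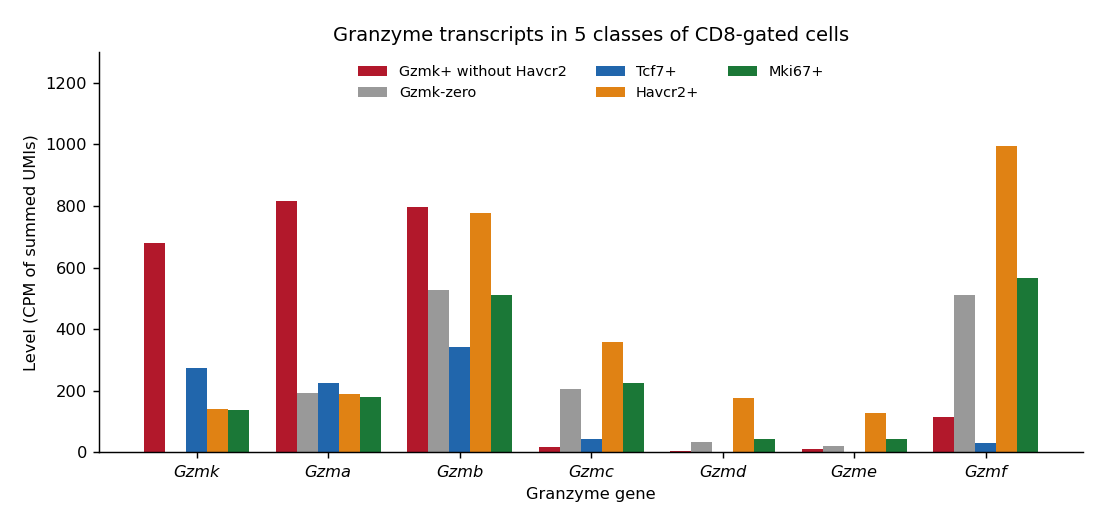
Level in CPM of the UMIs summed over each class (y axis, from 0) for 7 granzyme genes (x axis), with 1 bar per class of CD8-gated cells and no error bars. Gzmk, which defined the members, and Gzma are highest in members, and Gzmf is highest in Havcr2-positive cells at 996 CPM.

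Of the 16 cytotoxic granule genes past the filter, 2 were at least 1.5-fold higher and 5 lower (median log2 ratio 0.05). The other higher gene was Fasl, the death ligand, at 214 against 102 CPM and in 9 of 9 libraries, with a log2 ratio of 1.07, or 0.54 library-matched. Prf1, which encodes the pore-forming protein perforin, was lower at 117 against 188 CPM, but at 116 against 151 without library 3, which ended the call. Nkg7, a granule membrane gene, was at 2448 against 1743 CPM. Library-matched, 2 genes of this list were higher and 3 lower, but the 2 were not the same pair, since Fasl missed 1.5-fold.

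Ccl5, an inflammatory chemokine of effector and memory T cells, was higher in members. It was at 16351 CPM in members, 7806 in Tcf7-positive, 5771 in Havcr2-positive, 3950 in Gzmk-zero and 2870 in Mki67-positive cells. Over the remaining cells the ratio was 3.76 (3.71 to 3.81). Members ranged from 3869 over a median of 11375 to 22183 CPM across libraries and remaining cells from 1039 over 3276 to 14441, with members higher in 9 of 9. A Ccl5 UMI was present in 96.7% of members and 72.5% of the rest, against 2.80% of B cells and 36.2% of macrophages. The log2 ratio was 1.91, with 2.1 in libraries 1 to 6, 1.23 in libraries 7 to 12 and 0.93 library-matched.

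The other secreted factors were mostly lower in members. Of 12 cytokine and chemokine genes past the filter, 2 were higher and 9 lower, with a median log2 ratio of −0.94. The median was −0.97 in libraries 1 to 6, −0.66 in libraries 7 to 12 and −0.69 library-matched, with 1 higher and 7 lower. Ccl1, a chemokine for CCR8, was nearly undetected, with 6 UMIs in 4 members (2.83 CPM) against 155 CPM in the rest, 0.0182 times (0.00668 to 0.0397). In the libraries it ranged from 0 to 23.4 CPM in members and from 18.5 to 282 in remaining cells, and it was lower in 9 of 9. Xcl1, which attracts cross-presenting dendritic cells, was at 77.0 against 460 CPM, again lower in 9 of 9 libraries, and the growth factor gene Areg was at 50.5 against 102. Ccl3 was at 81.3 against 148 CPM and Ifng (interferon gamma) at 43.9 against 93. Ccl3 was lower in 9 of 9 libraries and Ifng in 6 of 9. Against Gzmk-zero cells, library-matched, their log2 ratios were 0.09 and 0.16, so neither was lower there. Both of these values rest in large part on the 35 Gzmk-zero cells of library 8. Ccl4 was at 491 against 499 CPM pooled, but lower in members in 8 of 9 libraries, with library medians of 271 and 363. The higher gene beside Ccl5 was Il16, at 36.4 against 23.7 CPM, which missed 1.5-fold without library 3, 5, 6 or 9. For Xcl1 the log2 ratio was −2.58, and −1.94 without library 8. That of Ccl1 was −5.78, with −4.97 without library 8, and without library 6 it rested on 3 UMIs (0.0110 times, 0.00226 to 0.0321).

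The transcription factors were led by Maf and Eomes. Maf (c-MAF) was at 527 CPM in members, against 213 in Tcf7-positive, 203 in Havcr2-positive, 91.1 in Mki67-positive and 85.5 in Gzmk-zero cells. The ratio over remaining cells was 4.20 (3.89 to 4.53). Members ranged from 115 over a median of 211 to 877 CPM, the highest being library 8, and remaining cells from 18.5 over 60.3 to 517, with members higher in 9 of 9 libraries. The log2 ratio was 2.07, 1.83 without library 8, 1.47 in libraries 1 to 6, 1.52 in libraries 7 to 12 and 0.95 library-matched. Macrophages also carry Maf (65.3% of 59620 had a UMI). Their summed markers were at 1901 CPM in members and 2707 in the rest, with library medians of 1600 and 1259, and their part in the Maf difference was not tested.

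Eomes, the T-box factor of memory and effector CD8+ cells, was at 220 CPM in members, 155 in Tcf7-positive, 88.1 in Havcr2-positive, 79.7 in Mki67-positive and 52.5 in Gzmk-zero cells. The ratio was 2.77 (2.48 to 3.09). In single libraries members ranged from 35.2 over a median of 163 to 341 CPM and remaining cells from 31.6 over 53.6 to 215. Members were higher in 8 of 9 libraries and lower in library 5. The log2 ratio was 1.47, 1.35 in libraries 1 to 6 only, 0.94 in libraries 7 to 12 only and 0.68 library-matched. An Eomes UMI was found in 40.2% of members and 16.9% of the rest (16.3% and 6.77% after thinning), 0 of 214 B cells and 34.2% of NK cells.

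Of 22 transcription factor genes past the filter 4 were higher and 3 lower, and library-matched 3 and 2. Irf8, an interferon regulatory factor that activated T cells also express, was at 118 against 389 CPM and lower in 9 of 9 libraries (members 31.2 to 305, remaining cells 74.1 to 654). Rbpj, the nuclear effector of Notch signalling, was at 137 against 277 CPM and lower in 9 of 9. Dendritic cell markers were lower in members as well, and their part in the Irf8 difference was not tested. Ikzf2 (Helios) was at 172 against 268 CPM and missed 1.5-fold without library 3 or 6. The other higher genes were Prdm1 (Blimp-1; 35.9 against 18.6 CPM) and Hopx (172 against 98.9), and without library 8 both missed 1.5-fold. Tox, a factor of exhausted T cells, was at 167 against 125 CPM and higher in only 4 of 9 libraries. Tbx21 (T-bet) was at 42.0 against 52.8 CPM and Id2 at 484 against 493.

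**Figure D4:**
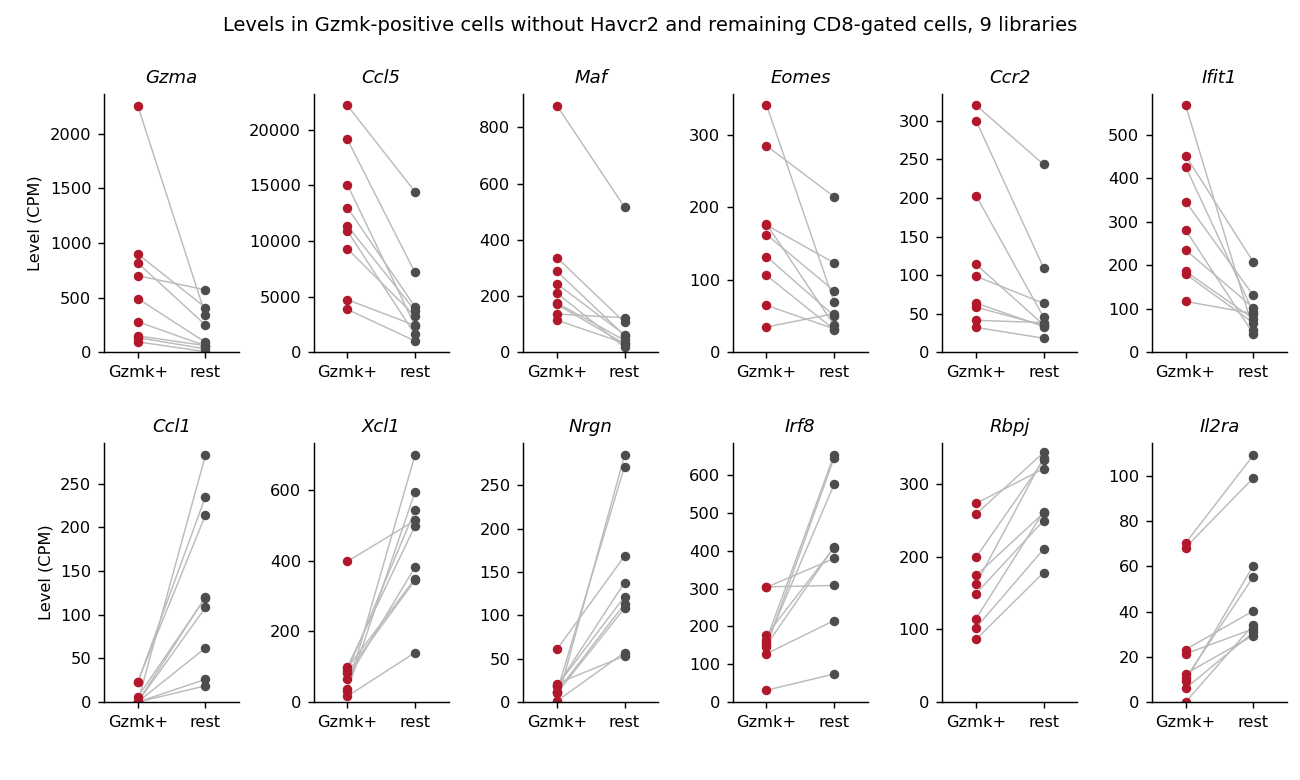
Level in CPM (y axis, from 0) of 12 genes in members (red) and remaining CD8-gated cells (grey), 1 panel per gene and 1 point per library for the 9 libraries compared, with lines joining the points of a library. Gzma, Ccl5, Maf, Ccr2 and Ifit1 are higher in members in 9 of 9 libraries, Eomes in 8 of 9, and the 6 genes of the lower row are lower in 9 of 9.

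Of 19 chemokine receptor and homing genes past the filter, 8 were higher and 2 lower, but library-matched 2 were higher and 2 lower. Ccr2, the receptor for CCL2, was at 223 against 73.8 CPM, a ratio of 3.03 (2.71 to 3.38). Members ranged from 32.5 over 98.7 to 320 CPM in the libraries and remaining cells from 18.5 over 38.7 to 244, with members higher in 9 of 9. Cxcr3, the receptor for interferon-induced chemokines, was at 76.1 against 34 CPM and higher in 9 of 9 libraries. The integrin chain Itga4 was at 389 against 200 CPM and Cxcr4 at 304 against 168. Cxcr6 was at 145 against 182 CPM and Cx3cr1 at 51.5 against 68.3, each lower in 6 of 9 libraries. The log2 ratio of Ccr2 was 1.60, with 1.33 in libraries 1 to 6 and 1.08 in libraries 7 to 12. Library-matched, the log2 ratios of Ccr2, Itga4 and Cxcr3 were 0.67, 0.58 and 0.35.

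The 2 lower homing genes were Itgae, the CD103 chain of tissue-resident cells, at 14.6 against 33.3 CPM, and Ccr7, the lymph node homing receptor, at 53.9 against 139. Ccr7 was lower in 7 of 9 libraries. The log2 ratio of Itgae was −1.18, but −0.41 without library 8, which ended the call, and −1.88 without library 6. That of Ccr7 was −0.67 without library 8. Mature dendritic cells also express Ccr7, and their part in its levels was not tested. Without cells with over 0.5% of their UMIs on markers of other lineages, the log2 ratio of Ccr7 was −2.30 instead of −1.37.

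Inhibitory receptors were not higher as a group. Pdcd1 (PD-1) was at 282 CPM in members and in the rest, a ratio of 1.00 (0.918 to 1.09), and higher in 3 of 9 libraries. Of 14 inhibitory receptor genes past the filter, 2 were higher (Vsir, 68.5 against 45.1 CPM, and Cd101, 19.8 against 12.6) and 5 lower. The lower genes were Cd200, at 5.67 against 24.2 CPM and lower in 9 of 9 libraries, Cd160, Cd244, Cd200r1 and Btla. Lag3 was at 71.8 against 97.6 CPM and Ctla4 at 166 against 157, each lower in members in 6 of 9 libraries. Both higher calls were lost in other settings, with 0 higher and 4 lower library-matched, 0 and 5 without Mki67-positive cells, and 0 and 2 without library 8. Thinning before the rule, which left 326 members, gave 1 higher and 8 lower, against 11.2% and 21.4% of all genes. Vsir also missed 1.5-fold without library 3, 6 or 9 and Cd101 without library 2 or 5. Without library 8 the log2 ratio of Cd200 was −1.50 instead of −2.09 and that of Cd200r1 −1.13 instead of −1.77.

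Of 15 costimulatory receptor genes past the filter, 6 were higher and 3 lower, and library-matched 1 and 3. The receptors Cd28 (334 against 188 CPM), Cd2, Cd5 and Cd6 (171 against 93.1) were higher, as were Cd27 (187 against 113) and the early activation marker Cd69 (241 against 104, 9 of 9 libraries). The receptor genes Tnfrsf9 (4-1BB), at 132 against 309 CPM, and Tnfrsf4 (OX40), at 49.6 against 101, were lower, as was Cd226. Tnfrsf9 was lower in 8 of 9 libraries, with 75.9 to 308 CPM in members and 189 to 461 in remaining cells. Without library 8, Cd27, Cd2 and Cd226 missed 1.5-fold. Cd2 also missed it without library 5 or 6, and Cd5 without library 1, 3, 5, 6 or 9.

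Of 15 memory-associated genes past the filter, 4 were higher and 3 lower, with a median log2 ratio of 0.30. Library-matched, 2 were higher and 3 lower and the median was 0.10. Slamf6 (Ly108), a receptor of stem-like exhausted cells, was at 69.0 against 29.7 CPM (2.32 times, 1.91 to 2.82), and the quiescence-associated factor Klf3 at 157 against 57.7 (2.72 times, 2.38 to 3.10), each higher in 9 of 9 libraries. Lef1, a relative of Tcf7, was at 54.8 against 29.4 CPM. All of these were at higher pooled levels in Tcf7-positive cells than in members, with 78.9 CPM of Slamf6, 182 of Klf3 and 73.2 of Lef1. The interleukin-7 receptor gene Il7r was at 287 against 232 CPM, and highest in Tcf7-positive cells at 544. The lower genes were Ccr7, the transcription factor gene Myb (15.1 against 24.5 CPM) and Dapl1, with 3 UMIs in members (1.42 against 15.1 CPM). The ratio of Dapl1 was 0.0939 (0.0192 to 0.279), and 0.0316 (0.000797 to 0.179) without library 3, 0.0624 (0.00749 to 0.229) without library 6 and 0.158 (0.0324 to 0.471) without library 8.

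Of the interleukin-2 receptor chains, Il2ra and Il2rb were lower in members and Il2rg, the common gamma chain, was not. Il2ra (CD25) was at 19.4 against 60.3 CPM and Il2rb (CD122) at 342 against 544, each lower in 9 of 9 libraries. Il2rg was at 229 against 179 CPM and higher in 8 of 9. Il10ra was higher at 87.9 against 41.4 CPM, as were Ifngr1 (824 against 522) and Il12rb1. The lower cytokine receptors further included Il12rb2 (6.61 against 23.7 CPM) and Il21r (70.9 against 123). Of 16 genes past the filter 3 were higher and 7 lower, library-matched 2 and 3, and without library 8 2 and 4. Il2rb missed 1.5-fold without library 5 or 8 and Ifngr1 without library 8. The log2 ratio of Il12rb2 was −1.84, with −2.55 without library 2 and −1.19 without library 8. Of 8 killer cell lectin-like receptor genes past the filter, Klrc2 (98.7 against 57.5 CPM) and Klrg1, a receptor of late effector cells (25.5 against 8.59), were higher, and Klra5 was lower (5.20 against 31.9). Klrg1 was higher in 6 of 9 libraries. Library 8 gave 9 of the members' 11 Klra5 UMIs, and without it the ratio of Klra5 rested on 2 UMIs (0.0471 times, 0.00568 to 0.171). The median of the killer cell lectin-like list was 0.16, and −0.34 with cells thinned to 1000 UMIs before the rule. Library-matched, only 1 gene of this list was higher and 1 lower.

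Interferon-stimulated genes were higher in members. Of 26 genes past the filter 20 were at least 1.5-fold higher in members and 0 lower, with a median log2 ratio of 0.99. Ifit1, which binds foreign RNA, was at 357 against 105 CPM (3.41 times, 3.11 to 3.73). Members ranged from 117 over a median of 281 to 568 CPM in the libraries and remaining cells from 43.1 over 89.3 to 208, with members higher in 9 of 9. Ifit3 was at 348 against 108 CPM, Mx1 at 80.3 against 30.3 and Usp18, a negative regulator of interferon receptor signalling, at 108 against 45.2. Tcf7-positive cells lay closer to members for some of these genes, with 185 CPM of Ifit1 and 208 of Ifit3, but 34.2 of Mx1. Ifit3b was at 86.9 against 21.3 CPM, higher in 7 of 9 libraries. Isg15 was at 185 against 154 CPM, also higher in 9 of 9 libraries, and Oasl1 at 18 against 22.2. The count was 17 higher and 0 lower library-matched, 18 and 0 without library 8, and 18 and 0 against Gzmk-zero cells. The median was 0.81 in libraries 1 to 6, 0.79 in libraries 7 to 12 and 0.69 library-matched. With cells thinned to 1000 UMIs before the rule, the median was 0.57 and 13 were higher and 1 (Oasl1) lower, against 11.2% and 21.4% of all genes.

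All 8 genes of the GIMAP family, small GTPases of lymphocyte survival, were higher, with a median log2 ratio of 0.97. Gimap7 was at 323 against 126 CPM and Gimap6 at 457 against 185, each higher in 9 of 9 libraries. In Tcf7-positive cells Gimap7 was at 217 CPM. The median was 0.85 in libraries 1 to 6 and 0.59 in libraries 7 to 12. Library-matched, 2 of the 8 passed 1.5-fold and the median was 0.44. After thinning before the rule 6 passed, against 11.2% of all genes, and the median was 0.79. The survival gene Bcl2 was at 690 against 368 CPM (1.87 times, 1.77 to 1.99) and higher in 9 of 9 libraries. Bcl2l11 (BIM), its pro-apoptotic partner, was at 132 against 174 CPM. Of 11 genes of the BCL2 family past the filter 1 was higher and 1, Bcl2a1a, lower, with a log2 ratio of −0.76, or −0.15 without library 8, which ended the call.

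**Figure D5:**
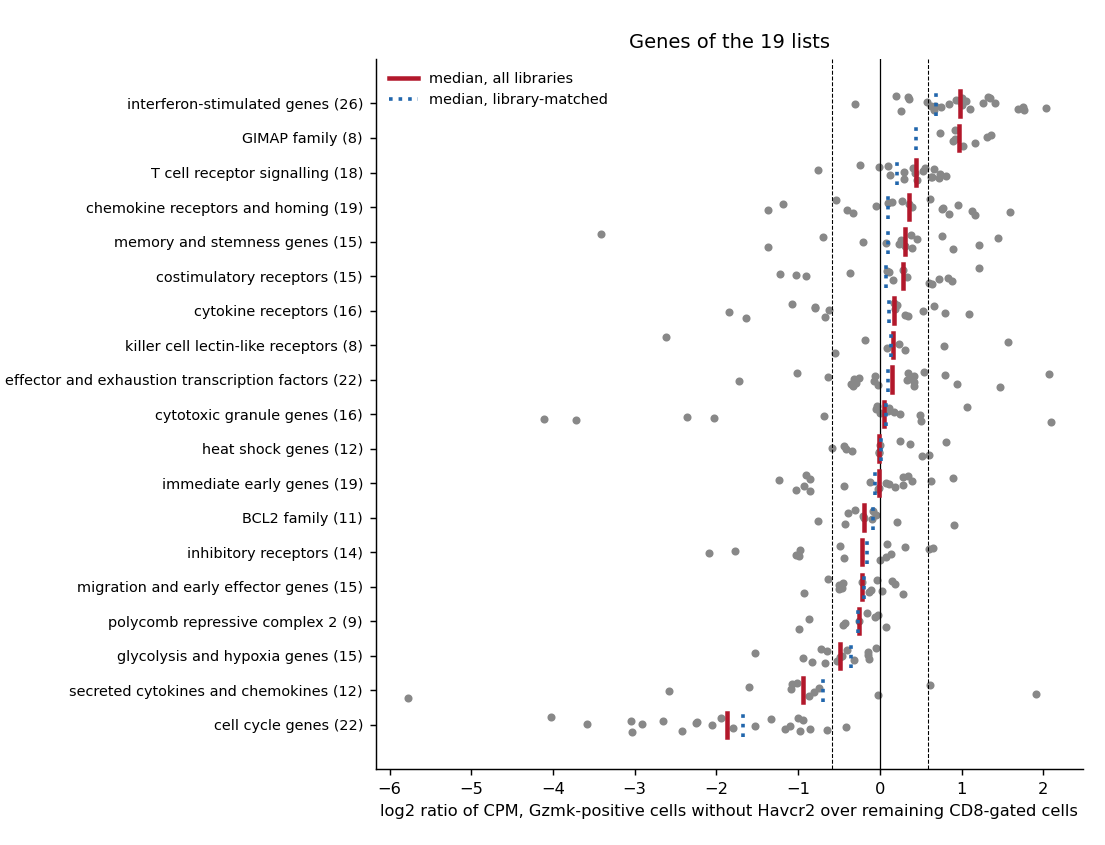
Log2 ratio of members to remaining cells (x axis) for each gene past the filter (points) in each gene list (y axis, with the number of genes), with red and dotted blue lines for the medians over all libraries and library-matched and dashed lines at 1.5-fold. The interferon-stimulated and GIMAP lists have medians of 0.99 and 0.97, and the cell cycle list, where only the remaining cells include Mki67-positive cells, −1.87.

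Of 18 T cell receptor signalling genes, 6 were at least 1.5-fold higher (Trbc2, Cd247, Lck, Fyn, Lat and Ptpn22) and 1 lower (Ptpn6, the phosphatase SHP-1). The median log2 ratio was 0.44. Library-matched, 0 were past 1.5-fold in either direction and the median was 0.21. Lck missed 1.5-fold without library 6 or 8, Ptpn22 without library 8 and Cd247 without library 3 or 11. Of 15 glycolysis and hypoxia genes, 0 were at least 1.5-fold higher and 6 lower (Ldha, Pgk1, Tpi1, Hk2, Mif and Bnip3). Library-matched 3 were lower, and without library 8 also 3. The median log2 ratio of this list was −0.49, or −0.12 against Gzmk-zero cells library-matched. Bnip3 also missed 1.5-fold without library 9, and the log2 ratio of Hk2 was −1.52, or −2.36 without library 6. Gapdh, which missed the 1.5-fold limit, ranged from 1331 to 1641 CPM in members and from 1742 to 2433 in remaining cells, so the libraries did not overlap. Of 15 migration and early effector genes 2 were lower, S100a4 (653 against 1242 CPM) and Tagln2, but 1 library-matched and 0 without library 8. Immediate early genes counted 2 higher and 6 lower of 19, and heat shock genes 2 higher and 1 lower of 12. Library-matched, these counts were 0 higher and 1 lower of the immediate early genes and 0 and 0 of the heat shock genes, and without library 8 the immediate early genes counted 2 higher and 3 lower. The heat shock gene Hspa1b turned from a log2 ratio of 0.60 to −0.63 without library 8, and missed 1.5-fold without library 2, 5 or 6.

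Cell cycle genes were lower, with 0 higher and 21 lower of 22, but members lacked Mki67 by the rule and the remaining cells did not. Compared with the remaining cells without an Mki67 UMI, 11 of 22 were lower and the median was −0.58 instead of −1.87. Against Gzmk-zero cells, which also lacked Mki67, 15 of 22 were lower with a median of −0.70, or −0.13 library-matched. Ezh2, the target of the inhibitor, was at 47.7 against 94.7 CPM and lower in 9 of 9 libraries. It was at 174 CPM in Mki67-positive cells and 53.4 in Gzmk-zero cells, and without Mki67-positive cells the log2 ratio was −0.17. Of 9 genes of polycomb repressive complex 2 past the filter, Ezh2 and Rbbp7 were lower and 0 higher. Rbbp7 ranged from 32.5 to 110 CPM in members and from 114 to 149 in remaining cells. Neither call held without Mki67-positive cells, where 0 of 9 genes were lower and the log2 ratio of Rbbp7 was −0.51 instead of −0.87, or against Gzmk-zero cells, where 0 were lower.

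By the rule for named genes, the 15 highest genes with the same direction in 9 of 9 libraries were Gzma, Maf, Ccl5, Ifit1, Ifit3, Ifi208, Lpin1, Ccr2, Gm26740, Klf3, Slfn8, Mx1, Gm2682, Gimap7 and Ifi206. Lpin1, a phosphatidate phosphatase of lipid synthesis, was at 98.7 against 32.2 CPM, and the interferon-inducible Ifi208 and Slfn8 had ratios of 3.09 and 2.70. The 15 lowest were Ccl1, Nrgn and genes of DNA replication and cell division, among them Esco2, Aspm and Hist1h1b. For the division genes the rule matters, since only the remaining cells include Mki67-positive cells. Esco2 and Aspm were at 62.5 and 78.1 CPM in Mki67-positive cells, against 3.83 and 3.61 in Gzmk-zero cells. Nrgn (neurogranin, a calmodulin-binding protein) was at 10.9 against 153 CPM (0.0711 times, 0.0449 to 0.107), with a UMI in 2.78% of members and 22.8% of the rest. It was at 154 CPM in Gzmk-zero cells. Its log2 ratio was −3.81, −3.16 library-matched and −3.14 without library 8. Esco2 and Aspm rest on 1 and 2 UMIs in members.

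Members were also set beside the other classes. For Ccl5, Eomes, Maf and Gzma, members had the highest level pooled over libraries, and the classes were not ranked within libraries.

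T cell receptor V genes were rarely read in these 3′ libraries. A Trbv UMI was found in 38 of 612 members (6.21%, 4.43% to 8.42%) and 4.79% of remaining cells. The 35 members with exactly 1 Trbv gene used 14 different genes, the most frequent being Trbv26 with 6 cells. Too few cells per library carried one to describe clones.

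A few genes were singled out after their values were seen. Esm1 (endocan), whose locus (chromosome 13, 113209659 to 113218098, plus strand) lies within the annotated span of Gzmk on the opposite strand (113171608 to 113225908), was at 59.0 against 9.59 CPM (6.16 times, 4.76 to 7.96). At under 10 CPM in the remaining cells, Esm1 passed the filter only through the members, so its pooled direction was fixed by the filter. It was higher in members in 6 of 9 libraries, and at 4.06, 13.4, 39.3 and 108 CPM with 0, 1, 2 and 3 or more Gzmk UMIs. Whether reads were counted by strand is not given in the sources used here, and mixing of Gzmk and Esm1 reads was not tested. The receptor tyrosine kinase gene Ret was at 51.5 against 10.7 CPM and the transcription cofactor gene Lmo1 at 45.8 against 10.4, each higher in 7 of 9 libraries. Library 8 gave 71 of 109 Ret and 79 of 97 Lmo1 UMIs of the members. Without it the ratio of Ret was 7.70 and that of Lmo1 2.73, at 32.9 against 4.28 CPM and 15.6 against 5.70. The monocarboxylate transporter gene Slc16a11 was represented by 2 UMIs in members and was at 18.5 CPM in the rest.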

How the data were processed

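CD45+ cells of MC38 tumors were profiled by 3′ single-cell RNA-seq (12 libraries). The deposited matrix holds raw UMI counts per gene and barcode, made by the authors with Cell Ranger (3.0.2 per the matrix header, 2.1.1 in the submitters' processing notes, which also name Seurat and mm10). No replicate or sample column could be used, and 0 columns of other samples were present.

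Counts were read with Python 3.11.15, numpy 2.4.6, scipy 1.17.1 and pandas 2.3.3 and drawn with matplotlib 3.10.9. UMIs were summed over the cells of a class and scaled to CPM. Intervals are exact (Poisson for levels and ratios, Clopper-Pearson for shares, 95%) and cover counting error only. Genes with a mean of at least 10 CPM over CD8-gated cells were compared, without the 12 genes of the rule, at a ratio of 1.5. A UMI total of 0 was set to a floor of 3 for ratios, and totals of 1 to 3 were used as counted. Cells and libraries gave no p-values, because no label ties the libraries to samples. Coordinates are from GENCODE M21 (GRCm38, 99.6% of 31053 genes matched). Cells were thinned with a fixed random seed. No doublet caller was run, and cells with over 0.5% of UMIs on other-lineage markers were left out as an alternative. The comparison was tested on simulated data.

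Named genes were the 12 of the rule, members of the 19 gene lists, and the 15 highest and 15 lowest genes with the same direction in every library compared. Members, lists and the rule were chosen with earlier results of these data known. Some listed genes are not reported here by name.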

Additional observations from a re-analysis of the deposited data

How the results depend on the processing

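No test was run, paired by library or not, and members and remaining cells were compared within libraries only as a description. No label ties the libraries to a mouse or treatment, members were chosen on sparse counts, and 50% of them rest on 1 Gzmk UMI, so numbers of members depend on depth.

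The 612 member cells (15.8% of CD8-gated cells) became 306 (8.59%) with at least 2 Gzmk UMIs, 326 (12.5%) when cells were thinned to 1000 UMIs before the rule, 241 (9.18%) in libraries 1 to 6 and 371 (29.8%) in libraries 7 to 12. The share was 17.3% with a mitochondrial limit of 5% and 17.9% without cells with over 0.5% of other-lineage UMIs. Leaving out 1 library at a time gave 12.7% (without library 8) to 19.97% (without library 6), with 440 to 611 members.

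Of genes compared with the remaining cells, 498 higher and 1089 lower became 216 and 687 library-matched, 2235 and 2541 with no minimum level, 188 and 291 with a minimum of 50 CPM, and 102 and 467 at 2-fold; 839 were higher after thinning. Leaving out 1 library gave 471 to 545 higher and 1025 to 1154 lower. Against Gzmk-zero cells, 532 higher and 972 lower became 1330 and 2450 with no minimum, 183 and 226 with 50 CPM, 110 and 369 at 2-fold and 859 and 1523 after thinning, and 726 and 613 library-matched, which turned the balance; leaving out 1 library gave 378 to 592 and 815 to 1053. The Eomes log2 ratio of 1.47 became 0.68 library-matched, 1.80 with at least 2 Gzmk UMIs, 1.75 after thinning and 0.94 in libraries 7 to 12, and 1.34 to 1.57 without 1 library. The causes were not tested.

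The sets of libraries and the comparison without Mki67-positive cells were chosen after seeing the data. Of 660 other values of the 15 highest and 15 lowest genes 514 stayed within the counting interval of the reported value, 146 moved and 0 reversed. These genes were picked for the same direction in every library compared, so 0 reversals were largely fixed by that choice. Counting intervals are also wide for genes with few member UMIs, such as Esco2 with 1. Other listed genes are not among the 660 values. Hspa1b, for example, turned without library 8, and Gzme turned against Gzmk-zero cells library-matched. Of 418 list medians 345 moved by less than 0.1, and 0 of those past 1.5-fold reversed. Shares of cells with a UMI were recomputed only after thinning, and the Gzmk steps and V genes under no other setting.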
